A study of Mus musculus with 14 samples.

Results

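Potassium channels carry the outward currents that repolarize cardiomyocytes and hold them at rest between beats. The 9 genes described here code for pore or accessory subunits of the main cardiac potassium currents, and were taken by symbol from a table of 54532 genes: Kcnd2, Kcnd3, Kcnip2, Kcnj2, Kcnj3, Kcnj11, Kcna5, Kcnh2 and Kcnq1. Each symbol matched 1 row, and 9 of the 9 passed the filter on low counts, which kept 15876 genes. The lowest count of a member in any library was 150, for Kcnd3, and the highest was 5923, for Kcnip2.

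Polyadenylated RNA of mouse ventricle was sequenced 1 week after surgery. Mice were wild type or CCL24 KO, which lack the chemokine gene Ccl24, and had either transverse aortic constriction (TAC), which narrows the aorta and raises the pressure the left ventricle pumps against, or a sham operation. There were 2 wild type sham, 6 wild type TAC, 2 knockout sham and 4 knockout TAC libraries, each taken as 1 mouse because these numbers equal the numbers of mice in the design text. The labels used here give no strain, sex or age, do not say how the Ccl24 allele was made, and mark no batch.

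Total counts ran from 17072262 to 33123052. Ccl24 had 3 to 8 counts in the knockout libraries and 56 to 105 in 7 of the 8 wild type libraries, but 3 in the wild type TAC library labelled replicate 1, which goes against its label. Results that use it are given with it. It was also left out for the members, for the ratios between groups and for the counts of genes past the threshold, and some of the changes are given below. The partner genes, other channel genes, transcription factors and cell markers were not checked 1 by 1 without it. Neither were the correlations within the wild type TAC hearts or those of the ratios. Among cardiomyocyte markers, 10 of 10 were measured, with summed levels of 49800 to 73100 normalized counts (CPM, scaled to each library's effective total). The 5 atrial markers summed to 14.6 to 27.7 CPM. Sln had 0 to 26 counts, Myl7 0 to 24 and Bmp10 0 to 5, and nearly all of the sum came from Myl4 (72 to 304 counts) and Stard10 (191 to 432 counts). Myl7 and Myl4 rose after TAC over both genotypes, by 2.50 and 0.82 on the log2 scale (adjusted p = 0.02 and 0.014). The share of mitochondrially encoded counts differed between groups: it was 18.5% to 18.8% in wild type sham, 10.1% to 17.1% in wild type TAC, 20.5% to 23.7% in knockout sham and 14.9% to 19.2% in knockout TAC.

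As background, an action potential in a mouse ventricular myocyte is short because a fast transient outward current repolarizes it early. Kv4 pores, encoded by Kcnd2 and Kcnd3, carry that current, and the calcium-binding subunit KChIP2, encoded by Kcnip2, brings them to the membrane. Inward rectifiers, made from Kcnj genes, hold the resting potential near that of potassium. Loss of these currents, with longer action potentials, is a known feature of hypertrophied and failing hearts.

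Per length of exon, the members differed widely in level. In wild type sham hearts Kcnip2 was highest, at 74.0 CPM per kilobase of exon (range 71.5 to 76.4, n = 2), followed by Kcnj11, the pore of the ATP-sensitive channel, at 36.3, and Kcnh2, the pore of the rapid delayed rectifier, at 18.7. Kcnj2 followed at 10.5. Kcnq1, Kcna5 and Kcnj3 came next, at 9.74, 9.15 and 9.12, and the ranges of neighbours among these 3 overlapped. Lowest were the Kv4 pores, Kcnd2 at 5.54 and Kcnd3 at 1.55, so the accessory gene stood far above the pores it serves. Kcnip2 and Kcnj11 held the first and the second place and the Kv4 pores the last places in every group. Kcna5 moved from the sixth place in wild type sham to the third in both knockout groups, and Kcnj2 from the fourth to the seventh. Lengths are the joined exons of GENCODE M21, which can exceed the transcript in use.

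**Figure D1:**
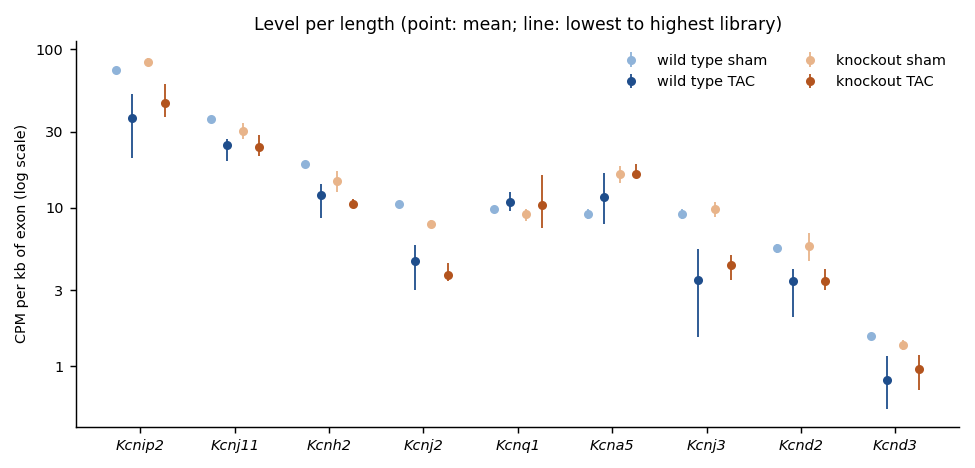
Level of each potassium channel gene per kilobase of exon (vertical log axis, CPM per kb), with the mean as a point and the lowest to highest library as a line, for 2 wild type sham, 6 wild type TAC, 2 knockout sham and 4 knockout TAC libraries. Kcnip2 lies highest in each group and Kcnd3 lowest, at 1.55 in wild type sham.

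The 9 genes lie on 7 chromosomes. Kcnip2 (ENSMUSG00000025221) spans chr19:45791839-45816061 on the minus strand of GRCm38, and Kcnj2 (ENSMUSG00000041695) spans chr11:111066164-111076821 on the plus strand. Kcna5 (ENSMUSG00000045534) spans chr6:126532551-126535412 on the minus strand. Some exons overlap a gene on the other strand: 165 bases of Kcnd3 with Kcnd3os, 1621 bases of Kcnj3 with Gm26794 and 121 bases of Kcnq1 with Kcnq1ot1. No source used here says whether the counting used strand, so reads in those bases cannot be assigned with certainty.

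The 250 bases before the annotated start are shown for 3 genes that behaved differently below: Kcnip2 and Kcnj2, which fell after TAC, and Kcna5, which did not pass that test. They come from RefSeq's promoter table for GRCm38.p6, 5′ to 3′ on the gene's strand, at chr19:45816064-45816313 for Kcnip2, chr11:111065914-111066163 for Kcnj2 and chr6:126535556-126535805 for Kcna5. Capitals mark matches, on either strand, to any of 4 motifs. The E-box was searched as CACGTG. A GC box was searched for by the letters GGGCGG. For the TATA motif the letters were TATAAA, and the last motif was CCAAT.
Kcnip2: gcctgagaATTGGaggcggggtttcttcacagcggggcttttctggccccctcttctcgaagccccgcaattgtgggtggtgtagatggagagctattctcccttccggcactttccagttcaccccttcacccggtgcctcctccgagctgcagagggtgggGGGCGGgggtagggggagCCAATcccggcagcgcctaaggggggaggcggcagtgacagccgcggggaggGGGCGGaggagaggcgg
Kcnj2: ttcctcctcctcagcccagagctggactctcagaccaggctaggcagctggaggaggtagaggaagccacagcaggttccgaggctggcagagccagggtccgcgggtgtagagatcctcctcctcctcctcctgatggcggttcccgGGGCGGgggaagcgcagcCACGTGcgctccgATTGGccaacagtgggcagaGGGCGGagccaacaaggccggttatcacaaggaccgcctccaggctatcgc
Kcna5: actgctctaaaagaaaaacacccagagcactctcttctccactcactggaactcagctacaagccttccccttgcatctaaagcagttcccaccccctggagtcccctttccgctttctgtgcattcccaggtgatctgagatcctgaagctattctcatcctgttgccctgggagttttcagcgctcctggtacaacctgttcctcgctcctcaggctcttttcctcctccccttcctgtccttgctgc
The Kcnip2 window held 2 GC boxes and 2 CCAAT matches, and the Kcnj2 window 1 E-box, 2 GC boxes and 1 CCAAT match, with none overlapping another. The Kcna5 window held none of the 4 motifs. It also had 3 CpG dinucleotides, against 15 for Kcnip2 and 14 for Kcnj2, and a GC content of 53.2%, against 66.8% and 65.6%. The windows not shown, all of members that fell after TAC, were mixed. Kcnd3 also held none of the 4 motifs, with 18 CpG, and Kcnj3 held 1 CCAAT match, with 7 CpG and a GC content of 58.4%. Kcnd2 and Kcnh2 held 1 and 3 GC boxes, with 22 and 14 CpG. Of 32536 promoters of this length 6.04% hold an E-box, 33% a GC box, 12.3% a TATA match and 33.8% CCAAT. A match describes the letters and is not evidence of a bound factor. Windows for 7 of the 9 members were in the table, without Kcnj11 and Kcnq1.

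The first comparison asks what TAC did to these genes. Over both genotypes, 7 of the 9 fell and 2, Kcna5 and Kcnq1, did not pass the test. By log2 fold change the falls ran from Kcnj3 (-1.28) and Kcnj2 (-1.13) through Kcnip2 (-0.95), Kcnd3 (-0.72) and Kcnd2 (-0.71) to Kcnh2 (-0.56) and Kcnj11 (-0.45). The median log2 change of the members was -0.71, and that of all genes tested was 0. Of all genes tested 11.6% were lower at an adjusted p under 0.05. The members were chosen with earlier results of these data known, so setting them against all genes describes them and is not a test of the set. In each genotype alone the count was 7 of 9 lower in wild type, where 5.8% of all genes tested were lower, and 1 of 9 in the knockout, where 1.73% were. Whether the genotypes differed in their response was tested by the genotype by surgery interaction, which passed for 0 of the 9 members and 0 of all genes (edgeR), with 0 members and 647 of all genes at an unadjusted p under 0.05. DESeq2 called 7 genes for the interaction, and 0 of the members. The intervals of the difference in log2 change (knockout minus wild type) were wide, from -0.33 to 1.20 for Kcnd3, from -0.86 to 1.31 for Kcnj3, from -0.83 to 1.10 for Kcnip2 and from -0.45 to 0.69 for Kcnj2, so these libraries do not show that the responses were alike. The comparisons over both genotypes and in each of them share libraries.

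Taken by library, the TAC values lay apart from the sham values for most members. In wild type, every TAC library was below every sham library for 7 of 9 members, a pattern shown by 16.6% of all genes tested. In the knockout this held for 6 of 9, without Kcnj11, against 17.6% of all genes. For Kcnd2, Kcnd3, Kcnip2, Kcnj2 and Kcnj3, all 10 TAC libraries lay below all 4 sham libraries of either genotype. The share of all genes tested with this pattern was not counted, so how unusual it is cannot be said. Wild type TAC replicate 7, the deepest library, was the lowest of its group for 7 members. Without it 7 members passed in wild type and 4 in the knockout. Without either of the 2 wild type sham libraries, however, 0 passed in wild type, and without knockout sham replicate 1 there were 4 over both genotypes and 0 in the knockout. With no filter on low counts 5 members passed in wild type, and with limma voom 6.

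**Figure D2:**
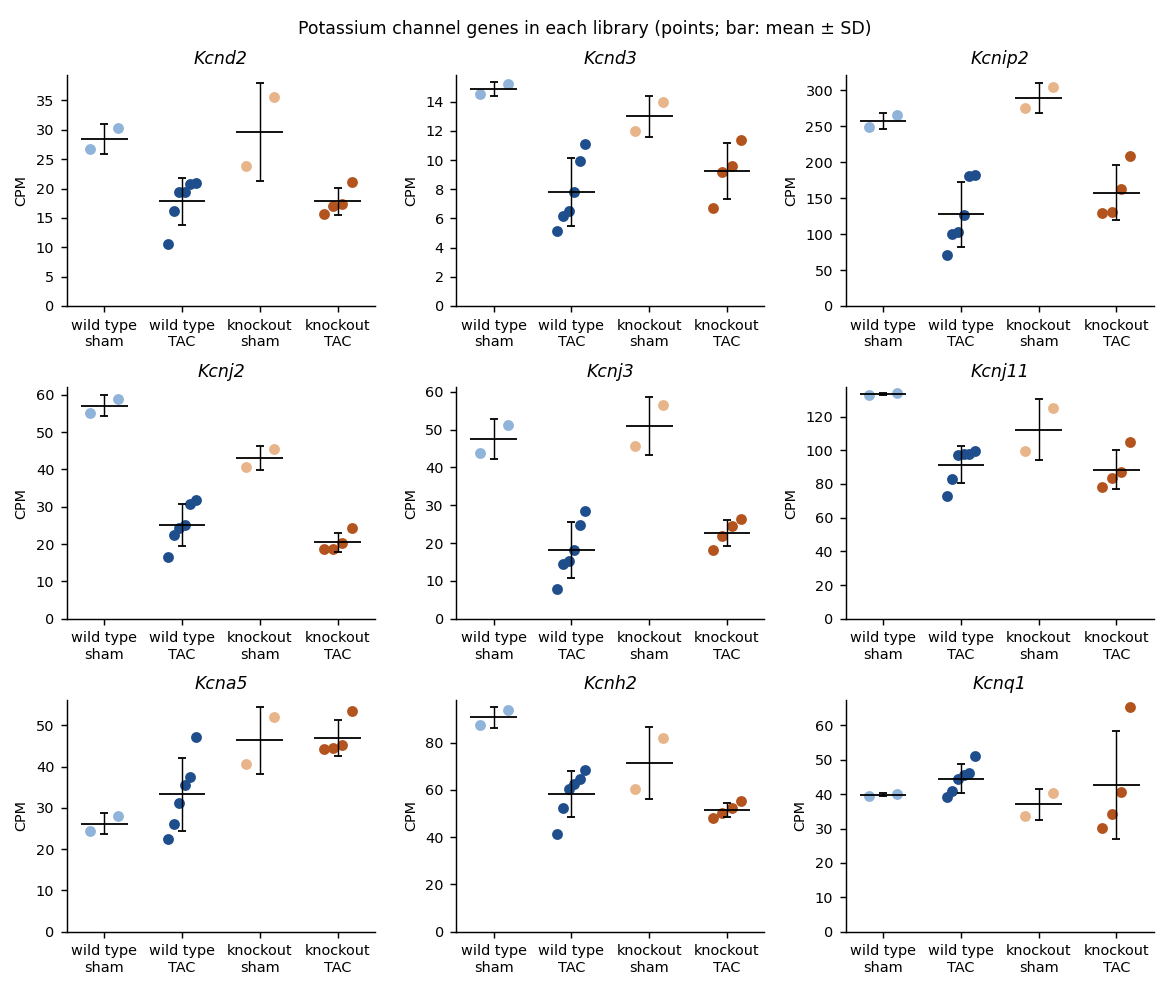
CPM of each of the 9 genes (vertical axes from 0) in every library, grouped as wild type sham (n = 2), wild type TAC (n = 6), knockout sham (n = 2) and knockout TAC (n = 4); horizontal bars are means and vertical bars 1 SD. The TAC points lie below the sham points for Kcnd2, Kcnd3, Kcnip2, Kcnj2 and Kcnj3, and not for Kcna5 or Kcnq1.

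The 3 genes of the transient outward current fell together. Kcnip2 was at 249 and 265 CPM in wild type sham, and at 182, 181, 126, 103, 100 and 71.5 in wild type TAC replicates 1, 2, 3, 4, 6 and 7. In the knockout it was at 304 and 275 CPM after sham and at 130, 129, 209 and 163 in TAC replicates 1, 2, 4 and 5. Neither genotype's groups overlapped, and the TAC libraries spread over a wider range than the sham libraries. The log2 change was -1.02 (SE 0.29, edgeR adjusted p = 0.042) in wild type and -0.88 (SE 0.32, adjusted p = 0.14) in the knockout, and -0.95 (SE 0.21, adjusted p = 0.0083) over both, which is 1.93-fold lower. The wild type call was lost on leaving out any of several libraries, among them wild type TAC replicates 3, 4 and 6, with adjusted p of 0.063, 0.067 and 0.062.

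Kcnd3, the less abundant Kv4 pore in these ventricles, was at 14.5 and 15.2 CPM in wild type sham and at 9.96, 11.1, 6.16, 6.53, 7.8 and 5.12 in the wild type TAC libraries in the same order. Knockout sham hearts had 14 and 12 CPM and knockout TAC hearts 6.74, 9.16, 11.4 and 9.6. Knockout TAC replicate 4, the highest of its group, came close to the lower knockout sham library. The log2 change was -0.93 (SE 0.24, adjusted p = 0.023) in wild type and -0.50 (SE 0.26, adjusted p = 0.29) in the knockout. Kcnd2, the other pore, was at 30.3 and 26.7 CPM in wild type sham and at 19.4, 19.4, 20.7, 21, 16.1 and 10.5 after TAC. In the knockout, the sham libraries were at 35.6 and 23.8 CPM and the TAC libraries at 21.1, 17, 15.7 and 17.4, so the sham pair differed from each other by more than the TAC libraries did. Its wild type change of -0.68 (SE 0.21) lay at the threshold, with an adjusted p that rounds to 0.05, and its change over both genotypes was -0.71 (SE 0.16, adjusted p = 0.0057).

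By fold, Kcnj3 and Kcnj2 fell most among the members over both genotypes, and Kcnj11, also an inward rectifier gene, fell least of the 7. Kcnj2 codes for Kir2.1, the main pore of the current that sets the resting potential. Its wild type sham libraries had 55.1 and 59.0 CPM, and the wild type TAC libraries 31.8, 30.7, 22.5, 24.2, 25.0 and 16.5. Knockout sham hearts had 45.4 and 40.7 CPM and knockout TAC hearts 18.8, 18.7, 24.2 and 20.3. The gap between surgeries was clear in both genotypes, and Kcnj2 was the member that passed in each: the log2 change was -1.19 (SE 0.17, adjusted p = 0.0046) in wild type and -1.07 (SE 0.19, adjusted p = 0.0082) in the knockout. Over both it was 2.18-fold lower (adjusted p = 0.0002). Without knockout sham replicate 1, the knockout change was -0.99 with an adjusted p of 0.19.

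Kcnj3 codes for a subunit of the acetylcholine-activated potassium channel, best known from atrium and sinus node. It was at 51.3 and 43.9 CPM in wild type sham and at 28.4, 24.7, 18.3, 14.5, 15.4 and 7.97 in wild type TAC. In the knockout, sham libraries were at 56.4 and 45.6 CPM and TAC libraries at 24.6, 18.3, 26.3 and 21.8. No TAC library reached the lowest sham library, and wild type TAC replicate 7 stood lowest, at 16.8% of the wild type sham mean. The change was -1.39 (SE 0.32, adjusted p = 0.022) in wild type and -1.17 (SE 0.35, adjusted p = 0.086) in the knockout. Its channel partner Kcnj5 is given below with the other partners.

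Kcnj11 codes for Kir6.2, the pore of the channel that opens when ATP falls. Wild type sham hearts had 133 and 134 CPM and wild type TAC hearts 97.7, 99.3, 97.2, 97.9, 83.1 and 72.7. Knockout sham hearts had 125 and 99.3 CPM and knockout TAC hearts 105, 86.9, 78.1 and 83.8, so 1 knockout TAC library lay within the sham range. The change was -0.55 (SE 0.13, adjusted p = 0.017) in wild type and -0.34 (SE 0.14, adjusted p = 0.17) in the knockout.

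The delayed rectifiers did not move as a group. Kcnh2, whose human counterpart is the long-QT gene also called hERG, was at 93.9 and 87.6 CPM in wild type sham and at 64.4, 68.3, 62.3, 60.2, 52.5 and 41.4 in wild type TAC. Knockout sham hearts had 82.1 and 60.5 CPM and knockout TAC hearts 52.3, 50.3, 55.1 and 48. The groups did not overlap within a genotype, although the lower knockout sham library lay below several wild type TAC libraries. The change was -0.64 (SE 0.15, adjusted p = 0.016) in wild type and -0.47 (SE 0.16, adjusted p = 0.1) in the knockout.

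Kcnq1, the pore of the slow delayed rectifier, had 39.6 and 40.1 CPM in wild type sham and 46.1, 41.0, 45.5, 51.0, 39.2 and 44.4 in wild type TAC. It had 40.3 and 33.8 CPM in knockout sham and 65.4, 40.5, 30.3 and 34.2 in knockout TAC. Knockout TAC replicate 1 stood well above the others, and the remaining TAC values overlapped the sham values. The change over both genotypes was 0.18 (95% interval -0.16 to 0.52, adjusted p = 0.43). Kcna5 codes for Kv1.5, a pore of the ultrarapid delayed rectifier. Its change over both was also 0.18 (95% interval -0.15 to 0.52, adjusted p = 0.42). These intervals leave out falls as large as those of Kcnj2 or Kcnip2.

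Bulk RNA does not tell fewer cardiomyocytes from less of an RNA in each cardiomyocyte, and markers of other cells moved in the same comparison. In wild type, 7 of 7 macrophage markers and 4 of 7 fibroblast markers rose after TAC. Of the other lists, Cspg4 (0.51) among 8 pericyte and smooth muscle markers and Tubb3 (3.30) among 7 nerve and glia markers rose. The macrophage sum went from 371 to 392 CPM in sham to 483 to 933 after TAC, and the fibroblast sum from 4230 to 4340 to between 4630 and 8030. In the knockout 0 of the macrophage and 0 of the fibroblast markers passed, with macrophage sums of 380 to 409 CPM after sham and 413 to 565 after TAC. Among cardiomyocyte markers 2 of 10 fell in wild type, the calcium-handling genes Pln (-0.51) and Ryr2 (-0.50), and the median was -0.17, against -0.68 for the channel genes. The part of the cell mixture and of the mitochondrial share in the channel genes' change was not tested.

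The listed partners of these channels held genes that fell and genes that rose. Of 23 listed genes for channel partners, 18 passed the count filter, and over both genotypes 4 fell and 2 rose after TAC. The falls were 22.2% of the partners tested, against 11.6% of all genes tested. Of all 15876 genes tested, 1839 fell and 2009 rose. Kcnj12, which codes for Kir2.2 and assembles with Kir2.1, fell by 0.74 on the log2 scale (SE 0.14, adjusted p = 0.0022), and Kcnj5, the partner of Kcnj3, fell by 0.79 (SE 0.12, adjusted p = 0.00054). Both sulfonylurea receptor genes also fell: Abcc9 by 0.73 (SE 0.16) and Abcc8 by 0.37 (SE 0.07). Kcnj14, the gene of Kir2.4, rose by 1.18 (SE 0.27, adjusted p = 0.0074). It was at 7.34 and 7.31 CPM in wild type sham and at 8.71 to 26.8 after TAC, and at 4.11 and 5.29 CPM in knockout sham and 8.31 to 13.3 after TAC, with no overlap in either genotype. Kcne4, an inhibitory accessory subunit of Kv channels, rose by 0.90 (SE 0.21, adjusted p = 0.0076). Kcnj8, the other ATP-sensitive pore gene, had a change of -0.07 (SE 0.13), which did not pass.

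Among 36 other potassium channel genes 28 were tested, of which 5 fell and 0 rose over both genotypes. The falls were 17.9% of those tested, against 11.6% of all genes tested. Kcnv2, a silent subunit that modifies other Kv pores, fell most, by 1.62 on the log2 scale (SE 0.25, adjusted p = 0.00079). It was at 10.3 and 8.22 CPM in wild type sham and at 1.68 to 5.03 in wild type TAC, and at 14.5 and 16.6 in knockout sham and 2.69 to 6.72 in knockout TAC. Kcnn1 (-0.42) and Kcna7 (-0.75) were also among them. Of 6 listed transcription factors tied to cardiac potassium channel genes, Klf15, a regulator of Kcnip2 in the daily cycle, fell by 0.68 (SE 0.10, adjusted p = 0.00043), and the other 5 did not pass over both genotypes. In wild type alone 2 of the 6 were lower after TAC, where 5.8% of all genes tested were. Klf15 fell in both genotypes, by 0.52 (SE 0.13) in wild type and by 0.84 (SE 0.14) in the knockout.

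The second comparison asks whether loss of Ccl24 changed these genes. After TAC, 0 of the 9 members differed between knockout and wild type in edgeR, where 9.34% of all genes tested did in either direction, 1 member had an unadjusted p under 0.05, and DESeq2 called 1. After sham, 0 of 9 differed, against 0.126% of all genes, with 1 member at an unadjusted p under 0.05 and 0 by DESeq2. Both of these members at an unadjusted p under 0.05 were Kcna5, and it was also the member DESeq2 called after TAC. Of all 15876 genes tested, 4565 after TAC and 1799 after sham had an unadjusted edgeR p under 0.05. DESeq2 called 2351 genes after TAC. At these thresholds 1 of 9 members is therefore not more than many other genes show.

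Kcna5 was higher in the knockout as a mean over both surgeries, and did not pass within either. The wild type sham libraries had 24.4 and 28.0 CPM and the knockout sham libraries 40.6 and 52.1. After TAC the wild type libraries had 35.5, 31.1, 26.1, 22.4, 37.5 and 47.2 CPM and the knockout libraries 44.6, 44.2, 45.2 and 53.4. The sham groups did not overlap, and after TAC 1 wild type library, replicate 7, lay within the knockout range. The log2 difference was 0.83 after sham (SE 0.26, adjusted p = 0.29) and 0.49 after TAC (SE 0.17, adjusted p = 0.074, and 0.033 by DESeq2). The mean of these differences, a comparison added after these values had been seen, was 0.66 (SE 0.16, adjusted p = 0.023), or 1.58-fold higher. It was the 1 member that rose in that comparison, where 3.73% of all genes tested were higher, and 0 members were lower, where 5.22% of all genes were. With the wild type TAC library labelled replicate 1 left out, the difference was 0.67 (adjusted p = 0.019). It no longer passed without knockout sham replicate 2 (0.56, adjusted p = 0.15) or without either wild type sham library (0.60 and 0.71, adjusted p = 0.12 and 0.088).

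For the other members the intervals of the difference after TAC bound what these libraries could hide. They ran from -0.38 to 0.37 for Kcnd2, from -0.17 to 0.67 for Kcnd3 and from -0.21 to 0.83 for Kcnip2. For Kcnj2 the interval was -0.60 to 0.03, for Kcnj3 it was -0.28 to 0.93, and for Kcnj11 it was -0.27 to 0.18. Kcnh2 had -0.44 to 0.08 and Kcnq1 -0.43 to 0.30. Kcnj2 was lower in the knockout by -0.29 after TAC and -0.41 after sham, neither of which passed. Without wild type TAC replicate 7 the TAC value was -0.38 and passed (adjusted p = 0.044), and without knockout TAC replicate 1 Kcnq1 passed, at -0.35 (adjusted p = 0.037).

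**Figure D3:**
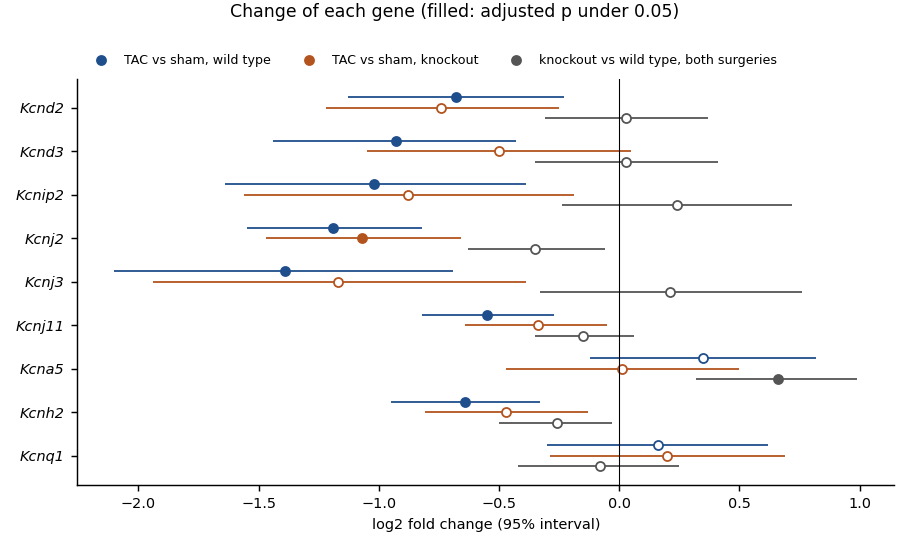
Log2 fold change of each gene (horizontal axis, with 95% intervals) for TAC against sham in wild type, TAC against sham in the knockout, and knockout against wild type over both surgeries; filled points passed an adjusted p of 0.05. In wild type 7 of 9 are filled, in the knockout Kcnj2, and between genotypes Kcna5 at 0.66.

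Genes outside the 9 differed between genotypes after TAC. Kcnj12 was lower in the knockout by -0.61 (SE 0.16, adjusted p = 0.031). It was at 25.4 and 25.5 CPM in wild type sham, 11.9 to 14.8 in wild type TAC, 15.7 and 10.1 in knockout sham and 5.8 to 12 in knockout TAC. So Kcnj12 was lowered by TAC over both genotypes, though the knockout TAC and sham ranges overlapped. It was lower in the knockout after TAC, and its mean was lower there after sham too, at 12.9 CPM against 25.4, which did not pass. Kcnj2 passed the test for surgery and not for genotype, though it was also lower in the knockout after TAC (-0.29). The ratio of Kcnj2 to Kcnj12 did not differ between genotypes after TAC (exact permutation p = 0.19, adjusted p = 0.33). A difference between these 2 genes in the effect of genotype is therefore not shown. A calcium-activated channel gene, Kcnn3, had the largest difference, -1.53 (SE 0.16, adjusted p = 0.00015), with 6.08 to 10.2 CPM in wild type TAC and 2.43 to 3.04 in knockout TAC, and these ranges did not overlap. After sham Kcnn3 was also lower in the knockout, at 2.52 and 2.79 CPM against 5.33 and 4.41, which did not pass. Kcnk2, the gene of the stretch-sensitive channel TREK-1, was lower by -0.80 (SE 0.15, adjusted p = 0.0074) after TAC and by -1.31 (SE 0.24, adjusted p = 0.045) after sham. Kcna1 was higher after TAC by 0.97 (SE 0.29, adjusted p = 0.049), at levels of 0.473 to 0.772 CPM in wild type and 0.494 to 1.33 in the knockout. After sham Kcna1 was also higher in the knockout, at 2.41 and 2.01 CPM against 0.768 and 0.558, which did not pass. Of the 6 transcription factors, Etv1 (-0.65) and Irx3 (-0.58) were lower and Irx4 (0.33), a ventricular factor, was higher. Mean Irx4 was 38.7 CPM in wild type sham, 30.1 in wild type TAC, 37.1 in knockout sham and 37.8 in knockout TAC. The wild type TAC mean was thus the one that stood apart. In the same order Etv1 was at 12.1, 13.8, 11.6 and 8.81 and Irx3 at 12.4, 11.1, 8.66 and 7.46. In the same comparison 3 of 7 fibroblast and 4 of 7 macrophage markers were lower in the knockout, 1 of 6 endothelial, 1 of 10 cardiomyocyte and 1 of 7 nerve and glia markers (Dbh, by 1.22, adjusted p = 0.029) were higher, and their part in these differences was not tested.

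The balance between subunits was compared as ratios of counts within a library, which do not depend on how libraries are scaled. Kcnip2 counts were 5.94 ± 0.557 (SD, n = 2) times the sum of Kcnd2 and Kcnd3 in wild type sham, 4.89 ± 0.972 (n = 6) after wild type TAC, 6.92 ± 1.10 (n = 2) for knockout sham hearts and 5.85 ± 1.39 (n = 4) after knockout TAC. The ratio of Kcnd3 to Kcnd2 was 0.523 ± 0.063, 0.445 ± 0.113, 0.451 ± 0.0797 and 0.534 ± 0.166 in the same order. Kcnj2 to Kcnj12 was 2.24 ± 0.0981, 1.88 ± 0.447, 3.46 ± 0.812 and 2.51 ± 0.821. For each ratio and genotype the TAC range overlapped the sham range. Of 6 exact two-sided permutation tests none passed, with raw p from 0.12 to 0.88 and adjusted p from 0.33 to 0.88. The smallest p these tests can give is 0.0024 between surgeries and 0.0048 between genotypes.

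**Figure D4:**
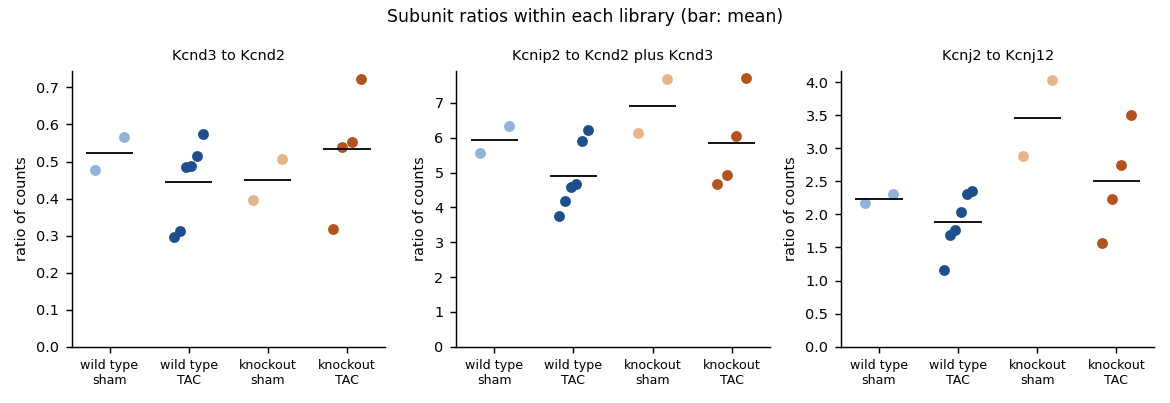
Ratios of counts within each library (vertical axes from 0) for Kcnd3 to Kcnd2, Kcnip2 to the sum of Kcnd2 and Kcnd3, and Kcnj2 to Kcnj12, in the 4 groups, with bars at the means. Wild type TAC and knockout TAC points spread over ranges such as 3.76 to 6.21 and 4.67 to 7.73 for the Kcnip2 ratio.

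TAC hearts differed among themselves, and the channel genes were set against a score of the load response. The score is the mean log2(CPM + 0.5) of Nppa, Nppb, Acta1, Myh7 and Ankrd1, genes that loaded ventricle expresses, and it is a level of RNA, not a pressure. It ran from 11.25 in knockout TAC replicate 4 to 12.25 in wild type TAC replicate 7. Its genes did not move equally. From the first of these hearts to the second, Nppa went from 599 to 5880 CPM, Nppb from 830 to 1320 and Acta1 from 9990 to 19600. Myh7 went from 3250 to 3460 and Ankrd1 from 5340 to 5250. In the edgeR fit given below, 2 of the 5 genes were higher with the score at an adjusted p under 0.05 and 0 lower. Sham hearts were left out. Their scores differed by genotype, at 10.03 and 10.21 in the knockout and 10.88 and 10.78 in wild type. A given score after TAC is thus not the same rise over sham in the 2 genotypes, and the correlations over the 10 hearts have no term for genotype. Over the 10 TAC hearts 3 of the 9 members had a permutation p under 0.05: Kcnd3 (r = -0.96, rho = -0.96, permutation p = 7e-05), Kcnip2 (r = -0.92, rho = -0.95, permutation p = 0.00017) and Kcnj3 (r = -0.83, rho = -0.9, permutation p = 0.0014). In the 6 wild type TAC hearts alone the values were -0.95 (exact p = 0.0069), -0.91 (exact p = 0.021) and -0.89 (exact p = 0.014). Without wild type TAC replicate 7 and knockout TAC replicate 4, the hearts farthest from the median score, r was -0.92, -0.87 and -0.77. The share of all genes under this permutation threshold was not computed. Many genes moved with the score: in the edgeR fit given below, 4075 of 15114 genes had an unadjusted p under 0.05.

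Kcnd2 did not share this relation with its sister pore, with r = -0.20 (rho = 0.1, permutation p = 0.61). Kcnj2 had r = -0.52 (rho = -0.54, permutation p = 0.13) over the 10 hearts and -0.89 (exact p = 0.011) in the 6 wild type hearts. For the remaining members r was -0.03 for Kcnj11, -0.36 for Kcna5, -0.33 for Kcnh2 and 0.54 for Kcnq1, with permutation p of 0.93, 0.31, 0.34 and 0.1. Of the ratios, Kcnip2 to the Kv4 pores fell with the score (r = -0.89, rho = -0.93, permutation p = 0.00053, adjusted p = 0.0016 over 3 ratios). Kcnd3 to Kcnd2 (r = -0.72, rho = -0.78, permutation p = 0.022, adjusted p = 0.022) and Kcnj2 to Kcnj12 (r = -0.79, rho = -0.81, permutation p = 0.0058, adjusted p = 0.0087) did as well. Within the 6 wild type hearts these were -0.86, -0.61 and -0.76 (exact p = 0.046, 0.18 and 0.072), and without the farthest hearts -0.94, -0.85 and -0.64 over the 8 left.

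**Figure D5:**
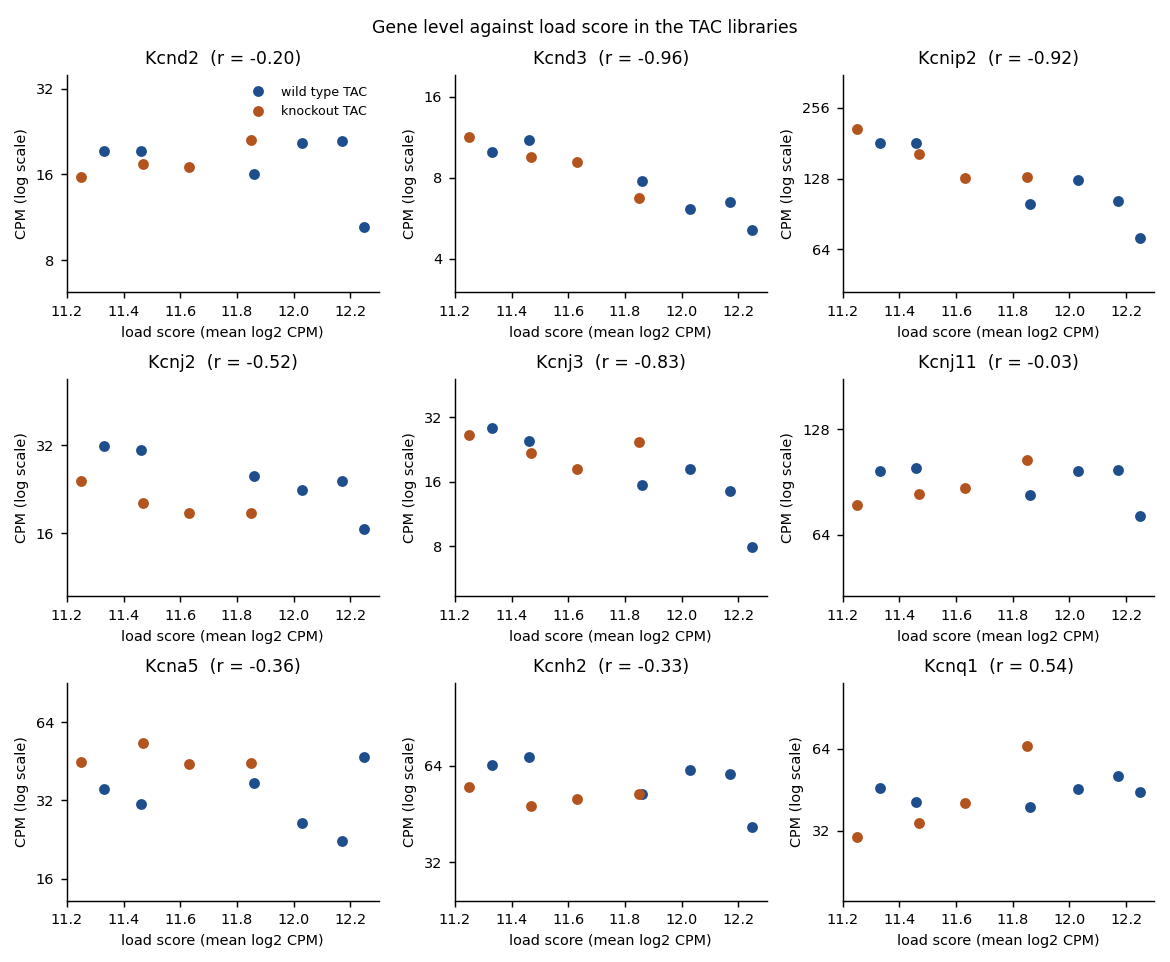
CPM of each gene (log axis) against the load score (mean log2 CPM of 5 genes) in 6 wild type and 4 knockout TAC libraries, with Pearson's r over the 10. Kcnd3, Kcnip2 and Kcnj3 descend from left to right with r of -0.96, -0.92 and -0.83, and Kcnd2 and Kcnj11 show no such slope.

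A fit of edgeR over all genes, with genotype as a term and added after the data had been seen, gave p-values adjusted over 15114 genes. In it 4 of 9 members were lower with a higher score, where 4.49% of all genes were. The log2 change per unit of score was -1.24 for Kcnip2 (SE 0.17, adjusted p = 0.00087), -1.11 for Kcnd3 (SE 0.17, adjusted p = 0.0015), -1.18 for Kcnj3 (SE 0.29, adjusted p = 0.025) and -0.76 for Kcnj2 (SE 0.14, adjusted p = 0.0048). Kcnd2 had -0.14 (SE 0.28, adjusted p = 0.8) and Kcnh2 -0.37 (SE 0.16, adjusted p = 0.14). With Nppa left out of the score, Kcnip2 and Kcnd3 still passed and Kcnj2 and Kcnj3 did not (adjusted p = 0.064 and 0.18). Kcnj3 was also lost without the wild type TAC library labelled replicate 1 (-1.07, adjusted p = 0.13) or without wild type TAC replicate 2 (-1.14, adjusted p = 0.077). Among the 18 partner genes tested 2 were higher with the score, Kcnj14 (1.39, SE 0.19, adjusted p = 0.00061) and Kcne4 (0.96, SE 0.26, adjusted p = 0.031), and 1 was lower, Abcc9 (-0.83, SE 0.19, adjusted p = 0.017). Of 26 other potassium channel genes 3 were lower, Kcna2 (-1.55, SE 0.28, adjusted p = 0.0044), Kcnv2 (-1.42, SE 0.32, adjusted p = 0.013) and Kcnt1 (-1.47, SE 0.44, adjusted p = 0.049). Of all 15114 genes in the fit, 990 were higher with the score and 678 lower.

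Other measures moved with the score in the same 10 hearts. The share of mitochondrially encoded counts had r = -0.95 (rho = -0.99, permutation p = 3e-05), the endothelial marker sum r = -0.90 (rho = -0.93, permutation p = 0.00029), the macrophage marker sum r = 0.88 (rho = 0.88, permutation p = 0.0009) and the cardiomyocyte marker sum r = -0.71 (rho = -0.73, permutation p = 0.026), with adjusted p of 0.00012, 0.00058, 0.0012 and 0.026 over these 4. In the edgeR fit 5 of 7 macrophage markers and 3 of 7 fibroblast markers were higher with the score, 4 of 6 endothelial and 2 of 10 cardiomyocyte markers were lower, and the cardiomyocyte markers had a median of -0.22 against -0.37 for the members. Of the pericyte and smooth muscle markers 2 of 8 were lower, and of the nerve and glia markers 3 of 7 were lower and 1 higher, with a median of -0.94. The part of these measures in the relation of Kcnip2, Kcnd3 and Kcnj3 with the score was not tested.

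The genes whose levels followed those of single members most closely were found over the 14 libraries, among 13439 genes, for the 3 members with the smallest p after TAC. Closest to Kcnj2 were Stom (r = 0.967), Mia2 (0.964) and Lmtk2 (0.964). Closest to Kcnh2 were Prrc2b (0.982), Zyg11b (0.98) and Cnst (0.965), and closest to Kcnj3 were Rab28 (0.985), Fyco1 (0.984) and Dbt (0.982). These correlations describe libraries that share the surgery, the genotype and the scaling, and carry no p.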

How the data were processed

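The authors deposited a table of whole-number read counts for each gene, not normalized, in 14 libraries. Per the submitters' processing notes, FastQC, HISAT2 2.1.0, featureCounts and edgeR were used with the mouse build GRCm38. The sources used here give neither their settings nor the annotation release nor the use of strand. The 9 members and the gene lists were chosen with earlier results of these data known.

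From the counts, genes were kept with edgeR 4.0.16 (filterByExpr, 15876 of 54532), scaled by TMM and fitted with 1 mean per group by the quasi-likelihood test. Differences are log2 fold changes, with Benjamini-Hochberg adjustment over all genes tested and a threshold of 0.05. Groups of 2 borrow their spread from the others, and depth was 17072262 to 33123052 counts. CPM used the TMM library sizes.

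Ratios were tested by exact permutation. The load score's correlations used 100000 permutations and are given raw, in place of a planned adjustment over the 9 members, beside the fit over all genes. Alternatives were RLE scaling, no filter, DESeq2 1.42.0, limma 3.58.1 voom, the compared groups fitted alone, a replicate block and leaving out each library. Members are all named. Of the other lists, up to 6 genes per comparison with the smallest p past the threshold are named, else the 2 with the smallest unadjusted p. Some listed genes are not reported here by name. Programs were tested on simulated data.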

Additional observations from a re-analysis of the deposited data

Results flagged for a closer look

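Kcna5 in knockout TAC hearts had 1 library far from the rest of its group: replicate 5 was at 53.4 CPM, and the other 3 lay at 44.2, 44.6 and 45.2. It was marked because its gap to the next library took up most of the group's range. In all, 24 groups of values were looked at, and chance marks about 1 in 20. Without that library Kcna5 was higher in the knockout over both surgeries by 0.62 (edgeR adjusted p = 0.045), against 0.66 with it.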

How the results depend on the processing

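Of the values other than counts of genes or members, 1020 of those with 1 library left out stayed on their side of the threshold, 34 lost it and 8 gained it. Under the other alternatives 345 stayed, 20 lost it and 13 gained it. No value that passed in either setting changed sign. RLE scaling changed no count of members.

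The counts of members depend on few libraries. With 1 library left out, the members past the threshold ranged from 0 (without either wild type sham library, when the one left is assumed to vary like the other groups) to 7 for TAC in wild type, from 0 to 4 in the knockout, from 4 (without knockout sham replicate 1, when Kcnd2, Kcnd3 and Kcnj11 were lost) to 7 over both genotypes, from 0 to 2 between genotypes after TAC, and from 0 to 3 between genotypes over both surgeries. The load fit gave 3 to 4. The genes past the threshold ranged from 0 to 2756 for TAC in wild type, 1 to 1361 in the knockout, 1427 to 4379 over both, 302 to 2939 between genotypes after TAC, 3 to 79 after sham, 126 to 2202 over both surgeries, and 0 to 3 for the interaction. These stood at 1930, 648, 3848, 1483, 20, 1420 and 0 with all libraries.

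With no filter on low counts, 5 members passed for TAC in wild type (6 with limma voom), 44 genes differed after sham, 3 for the interaction, and 0 members between genotypes over both surgeries, since Kcna5 then had an adjusted p of 0.056. DESeq2 called 1329 genes and 4 members for TAC in the knockout, 2351 genes and 1 member between genotypes after TAC, 147 genes after sham and 7 for the interaction. With the compared groups fitted alone, 736 genes and 3 members passed in wild type, 1458 and 5 in the knockout, 783 genes between genotypes after TAC, and 1158 genes and 2 members (Kcnj2 and Kcna5) after sham. With Nppa left out of the load score 2 members passed. The cause was not tested.

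The labels state no pairing by replicate number. Over 13 pairs with the same number the correlation of deviations ran from -0.24 to 0.11, with 1 over 0.1. Over the other pairs it ran from -0.33 to 0.4. These values gave no sign of pairing by number but cannot exclude it. With the replicate block, 22 genes and 1 member passed in wild type, 367 and 2 in the knockout, 1478 and 4 over both genotypes, 45 genes between genotypes after TAC, 13 after sham and 245 over both surgeries. The lowest count of a member in a library was 150. How much of the spread is counting error was not tested.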
